A study of Mus musculus with 6 samples.

Results

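The mouse genes Creb3, Creb3l1, Creb3l2, Creb3l3 and Creb3l4 and the related factor Crebzf were described in the growth plates of mice lacking ATF6a or ATF6b. Every non-control probe whose RefSeq accession maps to one of these 6 symbols was taken, whatever its values. That gave 8 probes, 1 for each CREB3 gene and 3 for Crebzf, out of 26490 probes with a symbol, which stand for 20095 genes. All 8 probes passed the filter on dim probes, which kept a probe if 1 genotype or more had it well above background on each of its arrays. The Creb3l4 probe passed it through the WT arrays alone.

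The 5 CREB3 proteins are basic leucine zipper transcription factors tethered to the endoplasmic reticulum (ER) membrane, as ATF6a and ATF6b are. They move to the Golgi, where the site-1 and site-2 proteases release the cytoplasmic part, which enters the nucleus and binds cyclic AMP response elements, ER stress response elements and related sites. Creb3l2, also called BBF2H7, is known in mouse cartilage for switching on COPII coat genes such as Sec23a, on which the secretion of cartilage matrix depends. Creb3l1, also called OASIS, is known in osteoblasts for driving the type I collagen gene Col1a1. Creb3l3, also called CREBH, works mainly in liver and gut, Creb3l4 is best known from prostate and testis, and Creb3, also called LUMAN, is widely expressed. Crebzf, also called Zhangfei, is a leucine zipper protein that can repress other members of this class.

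There were 3 groups of 2 samples: ATF6aKO, ATF6bKO and WT. All 6 came from untreated male C57BL/6J mice aged 4 weeks, from tibial growth plate taken by laser microdissection. How the alleles were made, whether the deletions reach every cell and whether a sample was 1 animal are not given in the sources used here, so p-values measure the spread between these samples, which may be technical. RNA was amplified before labelling with Cy5 and hybridised to an Agilent mouse oligonucleotide array. The 4 knockout arrays lay on 1 slide and the 2 WT arrays on another, extracted from the scans with a different protocol, so slide and genotype cannot be told apart in any comparison with WT. Within the knockout slide each genotype filled its own row, so row and genotype cannot be told apart there.

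The median spot intensity was 146 to 183 on the knockout arrays and 210 to 259.5 on the WT arrays, with a median local background of 37 on each knockout array and 17 on each WT array. Between 86.9% and 96.7% of spots were well above background on an array. The probe for Atf6 read 7.07 and 6.97 in the ATF6aKO samples, 6.91 and 7.01 in the ATF6bKO samples and 7.05 and 7.28 in the WT samples, and that for Atf6b read 8.92 and 8.48 in the ATF6aKO arrays, 8.77 and 8.41 in the ATF6bKO arrays and 9.06 and 9.19 in the WT arrays, all as normalised log2 intensity. Neither probe was lower in its own knockout by limma (adjusted p = 0.5 for Atf6 in ATF6aKO and 0.0834 for Atf6b in ATF6bKO), and where these probes lie relative to the deletions is not given here, so they do not check the labels. Markers of cartilage were present on every array, with 8 or 9 of 9 well above background. WT replicate 1 stood apart in bone genes: Col1a1 read 13.65 there and 6.74 in WT replicate 2.

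Against WT, 4 of the 8 probes differed in ATF6aKO and 3 of 8 in ATF6bKO, by limma at an adjusted p under 0.05. Creb3l1 was lower in both knockouts, Creb3 was lower in ATF6bKO, and Creb3l2 was higher in ATF6aKO. The remaining call in ATF6bKO was Creb3l4, whose probe entered the fit only because WT was above background, so its difference is a description. The 7 other probes gave 4 calls (57.1%) in ATF6aKO and 2 (28.6%) in ATF6bKO. The 3 probes for Crebzf did not move one way, and the calls in ATF6aKO include a lower and a higher Crebzf probe. The background of these comparisons was high: 41.9% of the 24907 probes tested were called in ATF6aKO against WT and 36.5% in ATF6bKO against WT. Nothing is therefore read from the shares of 50% and 37.5% among the 8 probes. Without ATF6aKO replicate 1, 2 members were called in ATF6aKO. Of the called probes, 2 were higher and 2 lower in ATF6aKO (all probes 20.1% higher and 21.8% lower). In ATF6bKO 0 were higher and 3 lower, or 0 and 2 without Creb3l4 (all probes 16.6% higher and 19.9% lower). The median log2 difference over the 8 probes was -0.38 in ATF6aKO and -0.35 in ATF6bKO (-0.38 and -0.32 over the 7 other than Creb3l4), beside -0.023 and -0.054 over all probes. In both comparisons with WT the arrays of the groups did not overlap for any of the 8 probes, which was also true of 72.9% and 72.5% of all probes. The comparisons share their 2 WT arrays.

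**Figure D1:**
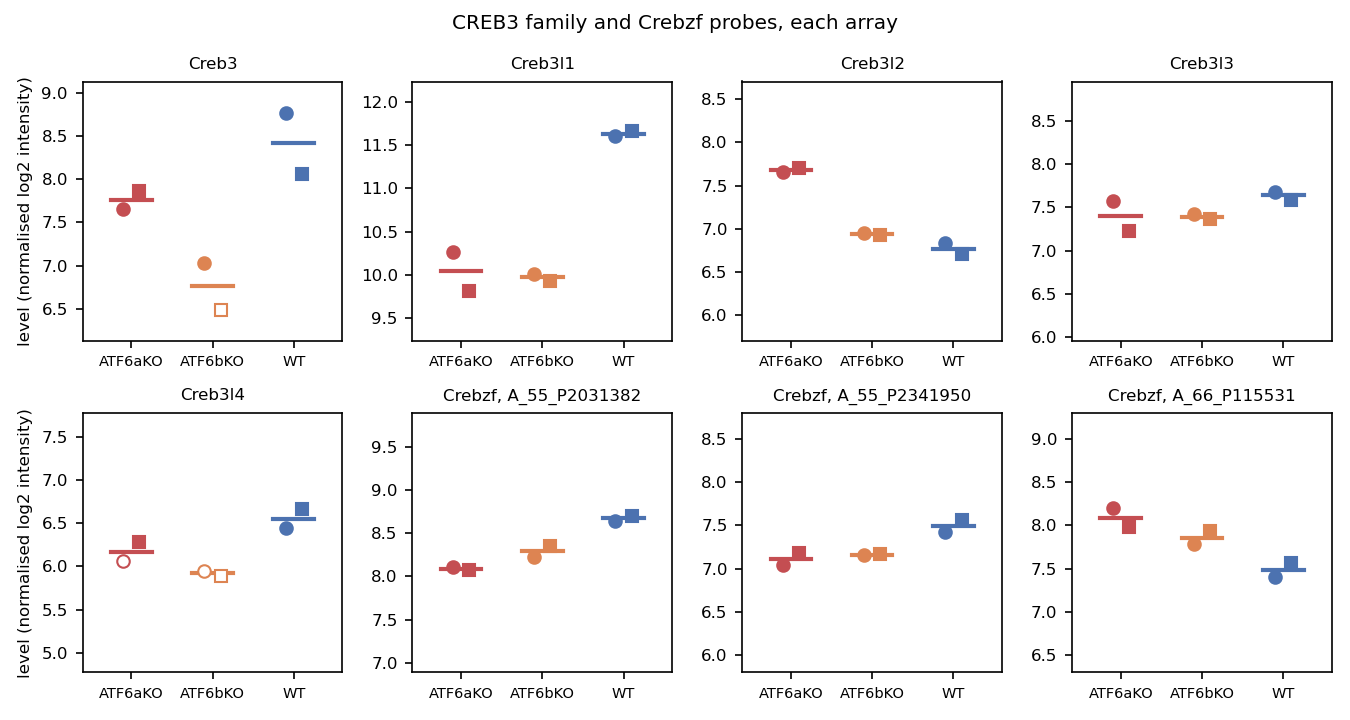
Level of each of the 8 probes on each array (normalised log2 intensity on the vertical axis, a span of 3 log2 units in every panel), with ATF6aKO, ATF6bKO and WT from left to right. Circles are replicate 1, squares replicate 2, open symbols were not well above background and bars are the means; Creb3l1 lies at 9.81 to 10.26 in the 4 knockout samples and at 11.6 and 11.66 in WT.

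Creb3l1, the factor tied to bone collagen, read 10.26 and 9.81 in the ATF6aKO growth plates, 10.01 and 9.93 in the ATF6bKO growth plates and 11.6 and 11.66 in the WT growth plates. The 4 knockout samples lay together and apart from both WT samples. The mean level was 10.04 ± 0.31 in ATF6aKO, 9.97 ± 0.06 in ATF6bKO and 11.63 ± 0.04 in WT (SD, n = 2 each), on spots of 697 to 1133 intensity units in the knockouts and 4044 and 4650 in WT. Creb3l1 was thus 3.01-fold lower in ATF6aKO than in WT (log2 difference -1.59 ± 0.19 SE, adjusted p = 0.00114 by limma). It was 3.16-fold lower in ATF6bKO than in WT (log2 difference -1.66 ± 0.19 SE, adjusted p = 0.00124 by limma). The knockouts did not differ detectably from each other, with a difference of 0.07 and a 95% confidence interval of -0.37 to 0.51. Both calls held under all 15 other settings based on the scanner files. The authors' deposited table is not counted there, since its knockout values track the green channel instead of Cy5. No Creb3l1 spot was well above background in that channel. In microdissected tissue, fewer cells of a type and less RNA per cell cannot be told apart.

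Bone cell markers were followed beside Creb3l1. Their summed level on the log2 scale, over the 7 of 10 listed that were measured, was 11.82 and 12.03 in the ATF6aKO samples, 11.27 and 10.92 in the ATF6bKO samples and 16.5 and 11.24 in the WT samples. Col1a1 and Col1a2 read highest in WT replicate 1, as the sum did. Bglap2, an osteocalcin gene, read 8.94 and 8.27 in the ATF6aKO growth plates, 8.96 and 9.09 in the ATF6bKO growth plates and 10.56 and 10.22 in the WT growth plates, high on both WT arrays as Creb3l1 was. Bglap2 and Mepe, an osteocyte matrix gene, were lower in both knockouts. Their log2 differences were -1.78 and -0.47 in ATF6aKO and -1.36 and -0.54 in ATF6bKO (adjusted p = 0.0018, 0.0462, 0.00556 and 0.0302 by limma). The 5 other measured bone markers were not called in either knockout. The called share of 28.6% lies below the 42.6% and 37.4% of all genes called. Sp7 and Ibsp read 10.34 and 13.33 in WT replicate 1, and 7.97 and 8.02 in WT replicate 2. Mepe lay near background, with knockout spots of 54 to 68 intensity units. Of 5 endothelial markers 3 were lower in each knockout (60%), beside 22.3% of all genes lower in ATF6aKO and 20.2% in ATF6bKO. Their summed levels were 10.42 to 10.64 in the knockouts and 11.69 and 11.75 in WT. Of 5 erythroid markers 3 were measured, at summed levels of 9.42 and 9.37 in the ATF6aKO samples, 9.52 and 9.55 in the ATF6bKO samples and 14.88 and 12.28 in the WT samples. Hba-a1, an alpha globin gene, and Slc4a1, the red cell anion exchanger, were lower by log2 differences of -5.71 and -2.32 in ATF6aKO and of -5.44 and -2.19 in ATF6bKO (adjusted p = 0.0019, 0.000455, 0.0027 and 0.000594 by limma), and Epb42, a red cell membrane protein gene, was higher by 0.86 and 0.87. The part of bone, endothelial and red blood cells in the Creb3l1 difference, and in those of the other members, was not tested.

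Creb3, the founding member, read 7.66 and 7.86 in the ATF6aKO arrays, 7.03 and 6.49 in the ATF6bKO arrays and 8.77 and 8.06 in the WT arrays. WT was highest, ATF6aKO intermediate and ATF6bKO lowest, with no overlap between neighbours. ATF6bKO replicate 2 had a spot of 61 intensity units, not well above background, beside 100 in ATF6bKO replicate 1. The mean was 7.76 ± 0.15 in ATF6aKO, 6.76 ± 0.38 in ATF6bKO and 8.42 ± 0.51 in WT (SD, n = 2 each). Creb3 was 3.16-fold lower in ATF6bKO than in WT (log2 difference -1.66 ± 0.28 SE, adjusted p = 0.00427 by limma). The difference of ATF6aKO from WT did not pass (log2 difference -0.66 ± 0.28 SE, adjusted p = 0.0945 by limma), and rested on which WT array was used: it was -1.01 (adjusted p = 0.0128) without WT replicate 2 and -0.3 (adjusted p = 0.381) without WT replicate 1. Over the 14 other scanner-based settings that kept the probe, the ATF6bKO difference ran from -2.72, on the scanner's processed signal, to -1.3. It had the opposite sign, 2.15 (adjusted p = 0.0319 by limma), in the authors' deposited table. For the knockouts that table tracks the green channel instead of Cy5.

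Creb3l2, the COPII regulator of cartilage, read 7.66 and 7.7 in the ATF6aKO growth plates, 6.95 and 6.93 in the ATF6bKO growth plates and 6.84 and 6.71 in the WT growth plates. The ATF6aKO samples were the highest, and ATF6bKO and WT were close. The mean was 7.68 ± 0.03 in ATF6aKO, 6.94 ± 0.01 in ATF6bKO and 6.77 ± 0.1 in WT (SD, n = 2 each), from spots of 165 and 176 intensity units in ATF6aKO, of 84.5 and 94 in ATF6bKO and of 80.5 and 116 in WT. Creb3l2 was 1.87-fold higher in ATF6aKO than in WT (log2 difference 0.9 ± 0.15 SE, adjusted p = 0.00374 by limma). That call held under all 15 other settings based on the scanner files, with 1.57 on the processed signal. In ATF6bKO the difference from WT was 0.17 with a 95% confidence interval of -0.19 to 0.53 (adjusted p = 0.424 by limma). That passed when normexp values were scaled to the 75th percentile of each array (0.51, adjusted p = 0.0376) and in the authors' deposited table (1.85, adjusted p = 0.0383).

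Most listed cartilage markers were also higher in the knockouts. All 9 listed were measured, and 8 were higher in ATF6aKO than in WT. In ATF6bKO 6 were higher than in WT and 1, Comp, was lower (log2 difference -1.13, adjusted p = 0.0434 by limma). These called shares of 88.9% and 77.8% stand beside 42.6% and 37.4% of all genes. The 88.9% counts Sox9, whose probe passed the filter on dim probes through the ATF6aKO arrays alone. It was well above background on 0 of 2 WT arrays, so its difference is a description. The markers' summed log2 level was 16.42 and 16.69 in the ATF6aKO samples, 15.8 and 14.62 in the ATF6bKO samples and 13.71 and 14.04 in the WT samples, in the same order of genotypes as Creb3l2. Col2a1, the main cartilage collagen, read 15.06 and 15.36 in the ATF6aKO arrays, 14.51 and 13.25 in the ATF6bKO arrays and 10.88 and 11.15 in the WT arrays. Their part in the Creb3l2 difference was not tested.

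The 250 bases before the start sites of Creb3 and Creb3l2 are shown because these members, each with 1 probe, were called in different knockouts. They come from RefSeq on GRCm38.p6, 5′ to 3′ on the gene's strand, with capitals marking CCACG or TGACG on either strand. The Creb3 window is chr4:43562408-43562657 on the plus strand and the Creb3l2 window is chr6:37442149-37442398 on the minus strand.
Creb3: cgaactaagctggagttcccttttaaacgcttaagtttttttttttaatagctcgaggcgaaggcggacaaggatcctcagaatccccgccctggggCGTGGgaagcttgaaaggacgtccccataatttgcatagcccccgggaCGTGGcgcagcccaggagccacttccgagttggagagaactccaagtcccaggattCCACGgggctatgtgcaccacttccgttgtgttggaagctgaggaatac
Creb3l2: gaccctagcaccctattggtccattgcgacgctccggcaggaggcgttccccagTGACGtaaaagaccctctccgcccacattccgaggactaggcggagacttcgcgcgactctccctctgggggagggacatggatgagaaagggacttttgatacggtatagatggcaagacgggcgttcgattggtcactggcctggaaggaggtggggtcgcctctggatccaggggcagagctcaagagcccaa
CCACG is the end of the ER stress response element that ATF6 recognises, and TGACG is one arm of the cyclic AMP response element. In the Creb3 window CCACG occurred 3 times, its leftmost base as printed lying 153 and 105 bases before the start site on the opposite strand and 49 bases before it on the gene's strand. In the Creb3l2 window TGACG occurred 1 time, 196 bases before the start. Both strands were searched, and of 32851 windows of this length 28.3% held CCACG and 17.8% held TGACG. RefSeq windows were found for 5 of the 6 members, 8 windows in all, and not for Creb3l1. None of the 8 held the full ER stress response element ERSE (0.113% of all windows), its variant ERSE-II (0.0304%), the palindrome TGACGTCA (1.55%) or TGACGTG (1.65%), which contains TGACG. These matches describe letters in the windows and were not tested against the expression values.

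Creb3l3, the liver member, read 7.57 and 7.23 in the ATF6aKO growth plates, 7.42 and 7.36 in the ATF6bKO growth plates and 7.68 and 7.59 in the WT growth plates. The groups sat within a narrow range, and no difference passed. The log2 difference was -0.24 in ATF6aKO (95% confidence interval -0.65 to 0.17, adjusted p = 0.305 by limma) and -0.25 in ATF6bKO (-0.66 to 0.17, adjusted p = 0.308). The intervals allow a fall of 0.65 or 0.66 on the log2 scale as well as no fall. All 6 hepatocyte markers were well above background on every array. Of these, 2 were higher and 1 lower in each knockout (50%, beside 42.6% of all genes called in ATF6aKO and 37.4% in ATF6bKO). Their median log2 differences were -0.24 in ATF6aKO and -0.14 in ATF6bKO. Fgb, a fibrinogen chain, was higher by 1.43 in ATF6aKO and 1.69 in ATF6bKO, and Apoa1, a lipoprotein component, was lower by log2 differences of -0.79 and -0.73.

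Creb3l4, the prostate and testis member, read 6.06 and 6.28 in the ATF6aKO samples, 5.95 and 5.89 in the ATF6bKO samples and 6.44 and 6.66 in the WT samples. Its spot was well above background on 1 of 2 ATF6aKO arrays, on 0 of 2 ATF6bKO arrays and on both WT arrays, so ATF6bKO has only an upper bound. Since the probe passed the filter through WT alone, its differences are given as a description. The measured log2 difference was -0.63 in ATF6bKO and -0.38 in ATF6aKO. Set against the dimmest detected signal of each ATF6bKO array, or the probe's own where higher, Creb3l4 was 1.3-fold lower in ATF6bKO. With 75th percentile scaling of the normexp values the ATF6bKO difference was -0.06, so the 1.3-fold value is not a lower bound. The ATF6bKO call was lost with that scaling. It was also lost without ATF6bKO replicate 1, ATF6bKO replicate 2 or WT replicate 2.

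The 3 probes for Crebzf disagreed in direction. Probe A_55_P2031382 read 8.11 and 8.08 in the ATF6aKO arrays, 8.22 and 8.35 in the ATF6bKO arrays and 8.64 and 8.7 in the WT arrays, and was lower in ATF6aKO than in WT (log2 difference -0.57 ± 0.15 SE, adjusted p = 0.0208 by limma). Probe A_55_P2341950 read 7.04 and 7.18 in the ATF6aKO growth plates, 7.16 and 7.17 in the ATF6bKO growth plates and 7.42 and 7.56 in the WT growth plates, a difference of -0.38 in ATF6aKO that did not pass (adjusted p = 0.0881). Probe A_66_P115531 read 8.2 and 7.98 in the ATF6aKO samples, 7.79 and 7.93 in the ATF6bKO samples and 7.4 and 7.57 in the WT samples, and was higher in ATF6aKO than in WT (log2 difference 0.61 ± 0.17 SE, adjusted p = 0.0241 by limma). No Crebzf probe passed in ATF6bKO against WT, where the differences were -0.38, -0.32 and 0.38 in the same order of probes, and A_66_P115531 passed there with 75th percentile scaling (0.54, adjusted p = 0.0451). With the 3 averaged, Crebzf differed by -0.12 in ATF6aKO (adjusted p = 0.544), so no direction can be given for the gene. Both Crebzf calls were also lost in the authors' deposited table and without ATF6aKO replicate 1. A_55_P2031382 was lost without ATF6aKO replicate 2 or WT replicate 2 as well, and A_66_P115531 without WT replicate 1.

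**Figure D2:**
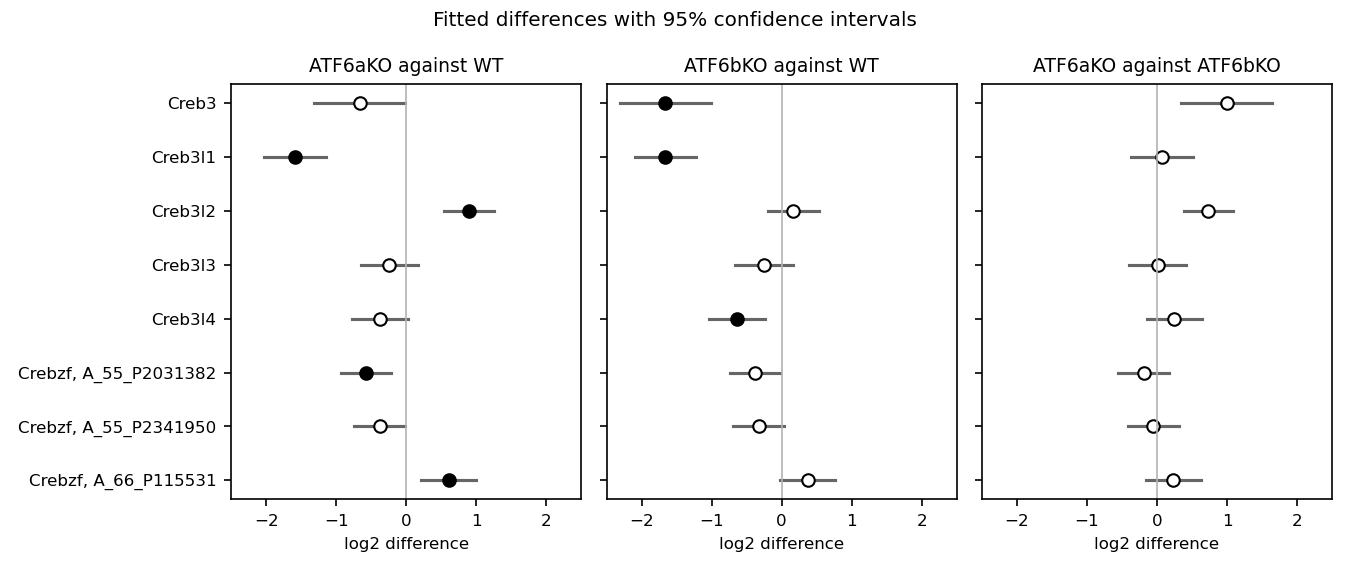
Log2 differences of the 8 probes (horizontal axis) with 95% confidence intervals as lines, for ATF6aKO against WT, ATF6bKO against WT and ATF6aKO against ATF6bKO; filled points have an adjusted p under 0.05. Creb3l1 lies at -1.59 and -1.66 against WT, and no point is filled between the knockouts.

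Between the knockouts, which shared a slide, 0 of 8 probes were called, as were 0% of all 24907 probes by limma, although 1605 had an unadjusted p under 0.05. Creb3l2 and Creb3 leaned higher in ATF6aKO. The Creb3l2 difference was 0.73 with a 95% confidence interval of 0.38 to 1.09 (unadjusted p = 0.00164, adjusted p = 0.582 by limma). The Creb3 difference was 1 with an interval of 0.35 to 1.65 (unadjusted p = 0.00785, adjusted p = 0.616 by limma). Across the scanner-based settings the Creb3l2 difference ran from 0.64 to 1.48 and that of Creb3 from 0.73 to 1.72, and in the authors' deposited table they were 0 and -0.8. The other 6 probes differed by -0.19 to 0.25, with intervals that spanned 0. The groups did not overlap for 5 of the 8 probes, beside 37.1% of all probes.

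**Figure D3:**
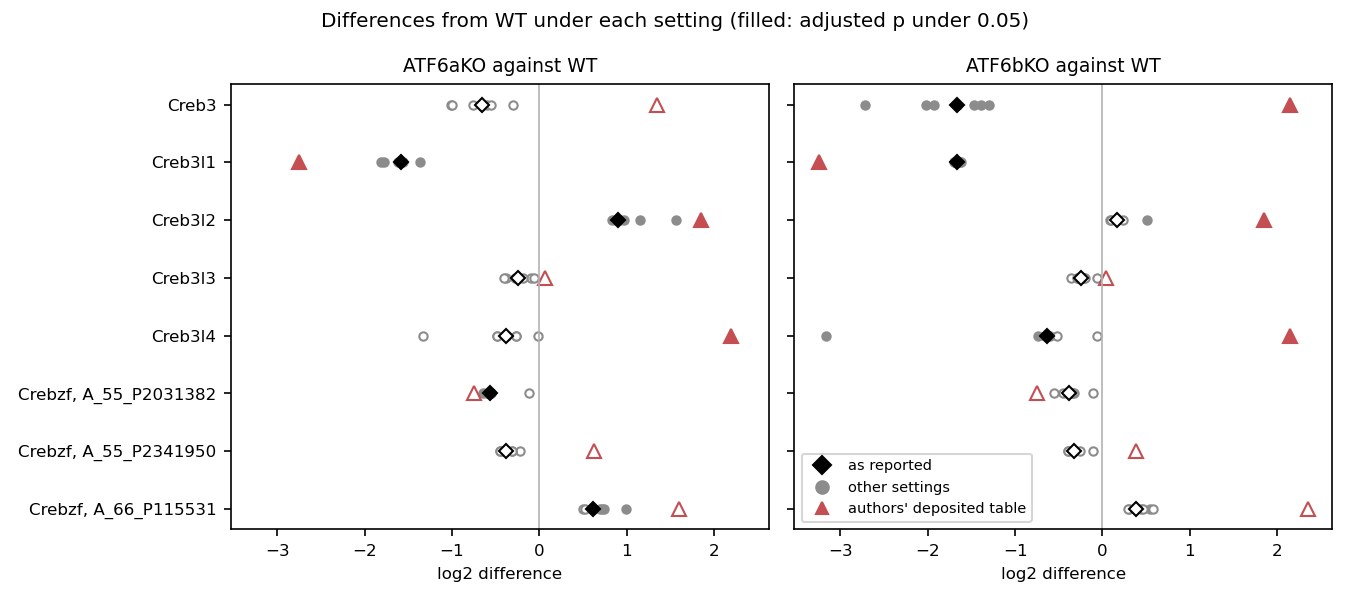
Log2 difference from WT of each probe (horizontal axis) under every setting, for ATF6aKO on the left and ATF6bKO on the right; diamonds are the values reported, grey circles the other settings and triangles the authors' deposited table, filled where the adjusted p is under 0.05. Creb3l1 is below 0 under every setting shown, and the triangles of Creb3 lie at 1.35 and 2.15, opposite to its other points.

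The machinery that processes and removes these factors was mostly not called by the brightest probe of each gene. Of 10 genes listed, 3 were higher and 0 lower in ATF6aKO than in WT, and 1 was higher and 0 lower in ATF6bKO, beside 42.6% and 37.4% of all genes called, taking the brightest probe of each of 19122 genes. Of all genes, 20.3% were higher and 22.3% lower in ATF6aKO, and 17.3% were higher and 20.2% lower in ATF6bKO. The list's median log2 difference was 0.4 in ATF6aKO and 0.06 in ATF6bKO, beside -0.027 and -0.052 over all genes. Fbxw7, a ubiquitin ligase subunit, read 11.23 and 11.19 in the ATF6aKO arrays, 11.29 and 11.28 in the ATF6bKO arrays and 8.15 and 7.92 in the WT arrays. It was 9.06-fold higher in ATF6aKO and 9.51-fold higher in ATF6bKO (adjusted p = 0.000455 and 0.000567 by limma). A second Fbxw7 probe was also higher, by less, with log2 differences of 1.2 in ATF6aKO and 1.55 in ATF6bKO, while the brighter probe gave 0.2 and -0.35 in the authors' deposited table. Insig2, which holds sterol-sensing complexes in the ER, was higher in ATF6aKO by 0.86 on the log2 scale (adjusted p = 0.0339), a call lost in 6 of 16 other settings. A second Insig2 probe was also called higher in ATF6aKO (1.25, adjusted p = 0.0149 by limma). Neither Insig2 probe was called in ATF6bKO (0.21 and 0.89). The site-1 protease gene Mbtps1 and the site-2 protease gene Mbtps2, picked for their role after their values were seen, differed by -0.24 and 0.33 in ATF6aKO and by -0.28 and 0.03 in ATF6bKO by their brightest probes, none of them called. A second Mbtps1 probe was higher in both knockouts, by 2.12 in ATF6aKO and 1.28 in ATF6bKO (adjusted p = 0.00101 and 0.00633), so the gene has no settled direction, while a second Mbtps2 probe was not called (0.1 and -0.04). Counting a gene where any of its probes was called, 4 of the 10 were higher in ATF6aKO and 2 in ATF6bKO.

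Of 8 genes listed as Creb3l2 targets, 1 was higher and 0 lower in ATF6aKO than in WT, and 0 were called in ATF6bKO, by the brightest probe of each. These shares of 12.5% and 0% lie below the 42.6% and 37.4% of all genes called. Counting any probe, 3 were higher in ATF6aKO and 0 in ATF6bKO, since second probes for the COPII genes Sec31a and Sar1a were higher in ATF6aKO by 2.04 and 1.23 (adjusted p = 0.00219 and 0.0389 by limma). The median log2 difference over brightest probes was 0.6 in ATF6aKO and -0.03 in ATF6bKO. This lean was not particular to the Creb3l2 list. Medians were 0.82 and 0.11 for the Creb3l1 targets and 0.7 and 0.11 for the Creb3 targets, but -0.47 and -0.44 for the Creb3l3 targets. Whether the list follows Creb3l2 was not tested. Atf5, a survival factor in chondrocytes, read 9.85 and 10.43 in the ATF6aKO growth plates, 9.35 and 8.54 in the ATF6bKO growth plates and 8.92 and 8.62 in the WT growth plates. It was 2.59-fold higher in ATF6aKO than in WT (adjusted p = 0.0103 by limma), and differed by 0.18 in ATF6bKO (adjusted p = 0.678). Its call in ATF6aKO was lost without ATF6aKO replicate 2 (1.08, adjusted p = 0.0801). Sec23a, the COPII subunit tied to Creb3l2 in cartilage, was picked for that role after its values were seen. It read 6.43 and 7.01 in the ATF6aKO samples, 6.18 and 6.15 in the ATF6bKO samples and 6.46 and 6.21 in the WT samples, with 3 of the 6 spots not well above background, and its differences did not pass (0.38 in ATF6aKO, adjusted p = 0.201, and -0.17 in ATF6bKO, adjusted p = 0.566).

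Of 6 genes listed as Creb3l1 targets, 3 were higher and 0 lower in each knockout, a share of 50% beside 42.6% of all genes called in ATF6aKO and 37.4% in ATF6bKO, from which nothing is read at 6 genes. A second probe for Copz2, a vesicle coat subunit, was lower in both (-1.45 in ATF6aKO and -1.43 in ATF6bKO), where its brightest probe was not called (1.4 and -0.47). The median log2 difference was 0.82 in ATF6aKO and 0.11 in ATF6bKO. Fkbp10, a collagen chaperone of the ER, read 11.12 and 11.1 in the ATF6aKO arrays, 10.85 and 9.38 in the ATF6bKO arrays and 8.32 and 7.68 in the WT arrays. It was 8.64-fold higher in ATF6aKO and 4.32-fold higher in ATF6bKO (adjusted p = 0.0019 and 0.00904 by limma). Gcm1, a placental transcription factor, was higher by 0.75 in ATF6aKO and 0.76 in ATF6bKO on the log2 scale by its brightest probe (adjusted p = 0.0126 and 0.0141 by limma). The authors' deposited table had that probe lower (-2.55 in ATF6aKO, -2.95 in ATF6bKO). The same probe read 16.24 to 16.5 in the knockouts, with 15.57 and 15.66 in WT, above Col2a1 on every array. Whether so high a reading is Gcm1 transcript was not tested. Gcm1 probe A_51_P130905 passed in neither knockout (ATF6aKO 0.42, ATF6bKO 0.46). Probes A_55_P2114697 and A_55_P2154107 were called higher in ATF6aKO (1.5, 1.84) as well as ATF6bKO (1.33, 1.57). The size of the Gcm1 difference thus varied by probe. Col1a1 and Col1a2 did not pass, and rested on WT replicate 1: Col1a2 read 11.08 and 11.46 in the ATF6aKO growth plates, 9.89 and 9.53 in the ATF6bKO growth plates and 16.02 and 8.62 in the WT growth plates.

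Of 5 genes listed as Creb3 targets, 3 were higher and 1 lower in ATF6aKO than in WT, and 2 were higher and 1 lower in ATF6bKO, too few genes to set beside the shares of all genes. Their median was 0.7 in ATF6aKO and 0.11 in ATF6bKO. Herpud1, an ER-associated degradation gene, read 7.84 and 8.53 in the ATF6aKO samples, 7.17 and 7.1 in the ATF6bKO samples and 7.21 and 6.83 in the WT samples, and was 2.24-fold higher in ATF6aKO (adjusted p = 0.00929 by limma). In ATF6bKO Herpud1 differed from WT by 0.11 (adjusted p = 0.754 by limma). Its ATF6aKO call was lost without ATF6aKO replicate 2 (0.82, adjusted p = 0.0502). Dcstamp, a fusion protein of osteoclasts, was higher by 0.71 in ATF6aKO and 0.62 in ATF6bKO, and Edem1, an ER mannosidase-like protein, was lower by log2 differences of -0.74 in ATF6aKO and -0.7 in ATF6bKO, each with the opposite sign in the authors' deposited table. Cops5, a COP9 signalosome subunit, was higher by 0.7 in ATF6aKO and 0.58 in ATF6bKO (adjusted p = 0.0124 and 0.0287).

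Of 8 genes listed as Creb3l3 targets in liver, 7 were measured, with 0 higher and 3 lower in ATF6aKO and 0 higher and 2 lower in ATF6bKO. These shares of 42.9% and 28.6% lie near and below the 42.6% and 37.4% of all genes called. The medians were -0.47 in ATF6aKO and -0.44 in ATF6bKO. Pck1, a gluconeogenic enzyme, read 7.2 and 7.25 in the ATF6aKO arrays, 6.91 and 7.46 in the ATF6bKO arrays and 8.42 and 8.91 in the WT arrays. It was 2.72-fold lower in ATF6aKO and 2.8-fold lower in ATF6bKO (adjusted p = 0.00351 and 0.00384 by limma), and in the authors' deposited table it differed by -0.27 and 0.76, uncalled. Apoa4, a lipoprotein component, was lower by log2 differences of -0.61 in ATF6aKO and -0.71 in ATF6bKO (adjusted p = 0.0302 and 0.0189).

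Among 9 measured factors of 10 listed in the wider CREB and ATF class, 3 were higher and 0 lower in ATF6aKO, and 2 were higher and 0 lower in ATF6bKO. These shares of 33.3% and 22.2% lie below the 42.6% and 37.4% of all genes called. The medians were 0.3 in ATF6aKO and 0.2 in ATF6bKO. Xbp1, the target of IRE1 splicing, read 8.71 and 9.32 in the ATF6aKO growth plates, 8.25 and 7.2 in the ATF6bKO growth plates and 7.4 and 6.6 in the WT growth plates, and was 4.04-fold higher in ATF6aKO (adjusted p = 0.00674 by limma). Without ATF6aKO replicate 2 the Xbp1 call was lost (1.71, adjusted p = 0.0625). Atf4, which is translated when PERK is active, was 3.49-fold higher in ATF6aKO and 1.92-fold higher in ATF6bKO by its brighter probe (adjusted p = 0.00142 and 0.0171), but its other probe differed by 0.76 and -0.08 and was not called. Atf2, a stress kinase target, was higher by 0.91 in ATF6aKO and 0.63 in ATF6bKO (adjusted p = 0.00919 and 0.0401), and the ATF6bKO call was lost in 8 of 16 other settings. Its 3 other probes were not called (0.17, 0.38 and 0.03 in ATF6aKO, 0.2, 0.25 and -0.26 in ATF6bKO), so the Atf2 call rests on 1 probe. Crem, a cyclic AMP response modulator, had 1 probe called lower (-1.33 in ATF6aKO and -0.99 in ATF6bKO) and 1 called higher (0.66 and 0.68). Between the knockouts, 0 genes of any of these 6 lists were called, with 0% of all genes called.

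Leaving out 1 array ended many of the calls of the genes that the naming rule picked from these lists, which do not include those of Cops5 and Atf2 in ATF6aKO. Of 10 such calls in ATF6bKO against WT, 7 were lost without ATF6bKO replicate 1, 5 without ATF6bKO replicate 2, 5 without WT replicate 2 and 2 when WT replicate 1 was dropped. Of 12 in ATF6aKO against WT, 3 were lost without ATF6aKO replicate 1, 6 without ATF6aKO replicate 2, 2 without either ATF6bKO array, 3 without WT replicate 2 and 0 without WT replicate 1. Fbxw7, Fkbp10 and Pck1 kept their calls in both knockouts under all 15 other settings based on the scanner files.

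**Figure D4:**
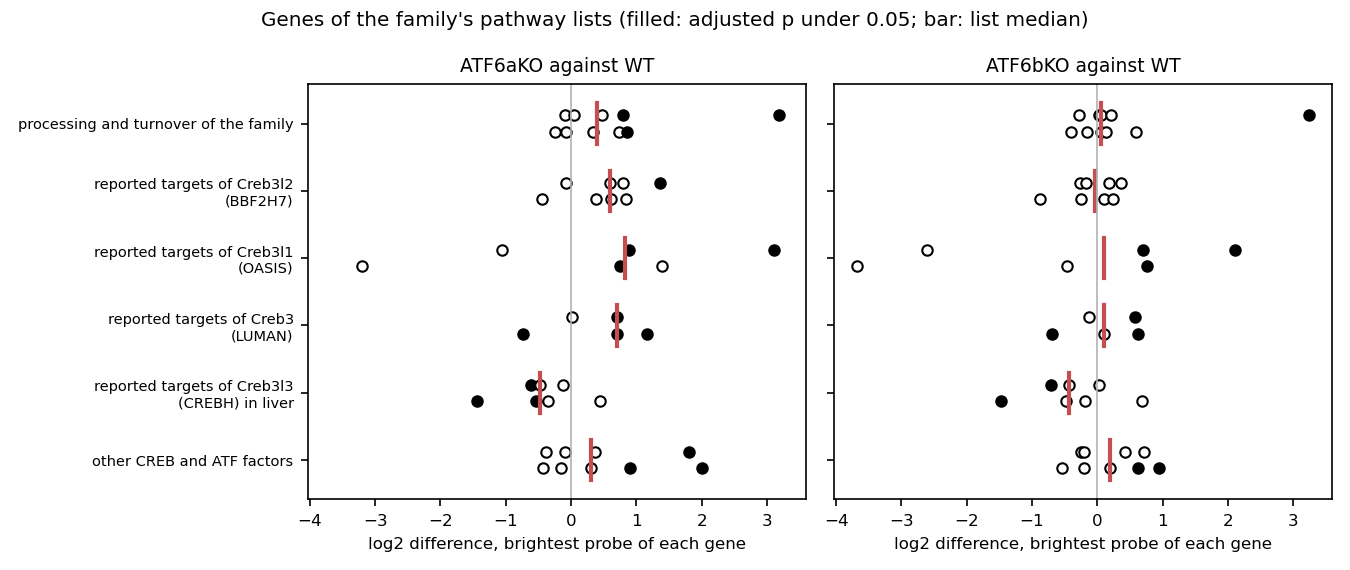
Log2 difference from WT of each listed gene by its brightest probe (horizontal axis), with ATF6aKO on the left and ATF6bKO on the right; filled points have an adjusted p under 0.05 and bars are list medians. Medians in ATF6aKO and ATF6bKO lie at 0.6 and -0.03 for Creb3l2 targets, 0.82 and 0.11 for Creb3l1 targets and 0.7 and 0.11 for Creb3 targets. Most points of the Creb3l2 target list are open. Other probes of a gene are not drawn.

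Other genes had profiles over the 6 arrays close to those of the members, measured as the Euclidean distance between log2 profiles centred on their means, with no test. Closest to Creb3l1 were Stimate (distance 0.13), Cog1, a Golgi tethering subunit (0.14), and Agrn, a matrix proteoglycan (0.17). Closest to Creb3l2 were Setd2 (0.14), Mdfi (0.15) and Aff4 (0.17), and closest to Creb3 were Gba2 (0.25), Naxe (0.46) and Col11a2, a cartilage collagen (0.49). Col11a2, which is not in the cartilage marker list, was lower in both knockouts, unlike most of that list. Its log2 differences were -0.9 in ATF6aKO and -1.55 in ATF6bKO (adjusted p = 0.0129 and 0.00219 by limma). Closest to the brightest Crebzf probe were Vmn1r32 (0.07), Lrrc71 (0.08) and Olfr868 (0.1). Vmn1r32 was well above background on 0 of 4 knockout arrays and on both WT arrays, Setd2 on 2 of 2 ATF6aKO, 0 of 2 ATF6bKO and 1 of 2 WT arrays, and Aff4 on all but 1 WT array, so their distances include readings at background. These profiles share 6 arrays and the split between slides. Over all probes, arrays correlated at 0.9704 to 0.9881 within the knockout slide and at 0.8508 to 0.9057 between slides.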

How the data were processed

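Per the labels' protocols, RNA was amplified from 150 ng and labelled with Cy5. The deposited scanner files hold intensity per spot, and the submitters' processing notes name Agilent Feature Extraction 10.7.1.1. Knockout arrays were read from the red channel and WT arrays from their only channel, per the file headers. Here, median spot and background intensity were corrected with normexp (offset 50) and quantile-normalised on the log2 scale, outlier-flagged spots were dropped (288 probes lost), and spots of a probe were averaged. Using R 4.3.3 and limma 3.58.1, 1 fit over the 6 arrays was adjusted by Benjamini-Hochberg over 24907 probes at a threshold of 0.05. Its code was tested on simulated data.

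The authors' deposited value table holds log2 values. Between knockout arrays its differences correlated with the green channel (r of 0.9979 to 0.9991) and not with the Cy5 channel (-0.0269 to 0.0869). It served only as an alternative. Column medians were 0.2 and 0.1 in the ATF6aKO samples, 0 and 0.227 in the ATF6bKO samples and -0.5 and -0.5 in the WT samples. Its scale is log2 and its direction that of the green signal, while how columns and probes were centred stays unknown.

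Members and lists were chosen with earlier results of these data known. From each list, up to 2 genes each way with the smallest p past the threshold in a comparison with WT were named, and 3 like profiles each for Creb3, Creb3l1, Creb3l2 and Crebzf. For the 3 Crebzf probes the brightest was used there. Each probe's difference is its own, and levels were not set between probes. Precision is limited by 2 arrays per genotype. Alternatives covered background, scaling, filter, probe summary, variance model, replicate block and each array left out.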

Additional observations from a re-analysis of the deposited data

Results flagged for a closer look

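The green channel of the knockout arrays, which the comparisons did not use, was read for the members. Of 32 member spots in that channel, 2 were well above background, both for the Creb3 probe, at 27 intensity units on ATF6aKO replicate 2 and 39 on ATF6bKO replicate 1. On the other ATF6aKO and ATF6bKO arrays the same probe read 26 and 27 without passing. The median spot of that channel was 21 to 23 intensity units, and 8.2% to 12% of all its probes were well above background, so 2 of 32 is not above the share of all probes.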

How the results depend on the processing

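Across 3 comparisons, Creb3l1 against WT in both knockouts and Creb3l2 in ATF6aKO kept their calls in all alternatives based on the scanner files. Their differences ran from -1.81 to -1.37, -1.7 to -1.62 and 0.83 to 1.57. The authors' table, set apart because it tracks the green channel in the knockouts, gave -2.75, -3.25 and 1.85. Counts of members below are counts of their probes, except where probes were averaged. The count of all probes called in ATF6aKO against WT became 22931 with unnamed probes added, and 5910 (without ATF6aKO replicate 2) to 10335 leaving out 1 array; for members it became 2 with probes averaged and 2 to 4 leaving out 1 array. In ATF6bKO against WT the counts were 20450 with unnamed probes, 3794 (without ATF6bKO replicate 1, 4699 without replicate 2) to 8844 leaving out 1 array, 1 member where only probes detected on all 6 arrays were kept, and 2 to 3 members leaving out 1 array. Between knockouts 29 probes were called with the knockout arrays alone, 0 to 30 leaving out 1 array (23 without ATF6aKO replicate 2, 15 without WT replicate 2, 30 without WT replicate 1), and 0 members in any alternative. Where 1 array was left out, the lone sample was assumed to vary like the other groups. Scaling normexp values to the 75th percentile gave 6864 higher and 4460 lower probes in ATF6aKO and 6359 and 3776 in ATF6bKO, with medians of 0.156 and 0.178, against 5002 and 5433 and 4126 and 4958 as reported. The authors' table gave 9818 and 3214, and 9868 and 3334, with both medians at 1.05. It reversed in ATF6aKO Creb3 (1.35), Creb3l3 (0.07), Creb3l4 (2.2), Crebzf A_55_P2341950 (0.63), Gcm1 (-2.55), Dcstamp (-2.45) and Edem1 (2.3). In ATF6bKO it reversed Creb3 (2.15), Creb3l3 (0.04), Creb3l4 (2.15), Crebzf A_55_P2341950 (0.38), Fbxw7 (-0.35), Gcm1 (-2.95), Dcstamp (-2.55), Edem1 (2.85) and Pck1 (0.76). Between knockouts it reversed Creb3 (-0.8), Crebzf A_55_P2341950 (0.25) and Crebzf A_66_P115531 (-0.75). Other reversals between knockouts were near 0: Creb3l1 (-0.09) and Creb3l3 (-0.02) on the processed signal, Creb3l3 (-0.03) with 75th percentile scaling and (-0.02) without ATF6bKO replicate 2, and Creb3l1 (-0.15), Creb3l3 (-0.17) and Crebzf A_55_P2341950 (0.02) without ATF6aKO replicate 1, with ranges over the arrays left out of -0.15 to 0.29 for Creb3l1, -0.17 to 0.18 for Creb3l3 and -0.13 to 0.02 for Crebzf A_55_P2341950. The cause was not tested. A replicate block gave 9701, 8319 and 0 probes in the 3 comparisons, with 4, 3 and 0 members, and lost the Atf2 call. Deviations of same-numbered samples correlated at -0.146, -0.0681 and 0.199. With 2 arrays per genotype these values cannot decide whether the numbers pair the samples.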
